A study of Mus musculus with 8 samples.

Results

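The 10 genes described here are transcription factors and targets of the integrated stress response, measured in mouse liver: Atf4, Atf5, Atf3, Ddit3 (which encodes CHOP), Trib3, Chac1, Asns, Phgdh, Psat1 and Mthfd2. They were chosen by symbol, and all 10 were found among the 24062 gene entries of the count tables. Total RNA depleted of ribosomal RNA was sequenced from livers of lean wild-type C57BL/6 mice, with 2 libraries in each of 4 groups and 8 in all. An adenovirus was injected at 0.1 OD, and livers were taken after 1 week, with food withdrawn for the last 6 h. At 3 months of age they carried the control virus lacZ1 or the virus shDnajb9, which targets the endoplasmic reticulum co-chaperone ERdj4. At 4 months of age they carried the control virus lacZ2 or the virus shRictor, which targets a defining subunit of mTOR complex 2. All 4 groups therefore shared the strain, the viral dose, the interval and the fast, and each knockdown was compared with its own lacZ group. Whether the control virus expressed lacZ or a hairpin against it is not stated in the labels. Nor is it stated that replicate libraries are separate animals, so p-values measure only the spread between these samples, which may be technical.

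In the integrated stress response, kinases that sense amino acid shortage, misfolded protein in the endoplasmic reticulum, heme shortage or double-stranded RNA phosphorylate the initiation factor eIF2. General translation then slows while translation of the Atf4 messenger RNA is favoured through its upstream reading frames, so the level of that messenger does not report the amount of ATF4 protein. ATF4 pairs with C/EBP and AP-1 family proteins on C/EBP-ATF response elements and activates genes for amino acid uptake, amino acid synthesis and redox balance, together with CHOP, ATF3 and the feedback protein TRIB3. Among its targets are the enzymes that make serine from a glycolytic intermediate (PHGDH, PSAT1 and PSPH) and the mitochondrial enzyme MTHFD2, which passes the one-carbon unit of serine along the folate pathway. In liver the serine synthesis enzymes are known to respond to dietary protein and to proliferation.

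Letters that match the core of the response element occur in the promoter windows of some members. RefSeq promoter windows (GRCm38.p6, 250 bases before to 50 bases after a start) were found for 10 of the 10 genes, in 12 windows. The core TGATGNAA, searched on both strands, was in the windows of 4 of the 10 genes (Atf3, Trib3, Asns and Chac1) and in 3.97% of all 32851 windows. A related run of letters, TGGTGCAA, was chosen after the sequences were seen, was in 1 window each of Trib3 and Psat1, and occurred in 0.536% of all windows. The endoplasmic reticulum stress element, searched on both strands, was in the windows of 0 of the 10 genes and in 0.119% of all windows. The stretches around these letters are printed because they let Psat1 and Atf3, which were lower in both knockdowns, be set beside Asns, Trib3 and Chac1, which were not called in either. Each is written 5′ to 3′ on the gene's strand, with the matched letters in capitals, and TTGCATCA is the core read from the other strand.
Atf3, chr1:191183406-191183473, minus strand: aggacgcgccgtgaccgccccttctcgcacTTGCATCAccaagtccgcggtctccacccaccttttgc
Psat1, chr19:15925158-15925225, minus strand: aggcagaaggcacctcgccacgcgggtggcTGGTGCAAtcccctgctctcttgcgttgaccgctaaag
Trib3, chr2:152344061-152344123, minus strand: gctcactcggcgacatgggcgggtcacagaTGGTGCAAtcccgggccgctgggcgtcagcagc
Asns, chr6:7693214-7693243, minus strand: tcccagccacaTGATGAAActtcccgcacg
Chac1, chr2:119351019-119351086, plus strand: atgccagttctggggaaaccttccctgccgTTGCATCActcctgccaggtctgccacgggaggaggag
Trib3 holds a second match, of the core itself, just after its start. The matched letters did not separate the members by their change: Atf3 and Psat1 fell, Trib3, Asns and Chac1 were not called, and Phgdh and Mthfd2 fell with no match in their windows. A match is a run of letters in a window and was not tested as a binding site.

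Reads assigned to genes ranged from 6426164 to 11383532 per library, and the 2 libraries of each group differed by more than counting error (chi-square per degree of freedom from 18.2 to 51.98). Reads that mapped to more than one place made up 41.3% and 41.97% of all reads in the shDnajb9 libraries and between 22.88% and 32.69% in the other 6. Replicate 1 of shDnajb9 and replicate 1 of lacZ2 stood apart, with 4.703% and 4.258% of gene counts in the single noncoding RNA Rpph1, against at most 2.028% elsewhere. The targets were lower in their own knockdown without passing the test, so a knockdown is named here by its label. For Dnajb9, the lacZ1 libraries had 30.6 and 38.0 CPM (counts scaled to a common library size with TMM factors) and the shDnajb9 libraries 22.0 and 20.3 (log2 fold change -0.70, SE 0.25, adjusted p = 0.0560). For Rictor, the lacZ2 libraries had 52.3 and 65.2 CPM and the shRictor libraries 40.1 and 42.0 (log2 fold change -0.52, SE 0.28, adjusted p = 0.231). Rictor was lower by a like amount in shDnajb9, with 33.3 and 63.4 CPM against 65.4 and 68.8 in lacZ1 (-0.46, SE 0.28, adjusted p = 0.239). That value became -1.01 without shDnajb9 replicate 2 (adjusted p = 0.0169) and -0.079 without shDnajb9 replicate 1. The difference between the knockdowns in Rictor was -0.055 (SE 0.40, 95% interval -0.91 to 0.80). For Dnajb9 that difference was 1.10 (SE 0.34, 95% interval 0.36 to 1.85, edgeR adjusted p = 0.394). Dnajb9 had 61.1 and 43.8 CPM in shRictor against 40.4 and 38.8 in lacZ2. Its fall in shDnajb9 was called under 4 of the 19 other settings tried.

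In both knockdowns the same 4 members were called lower and none was called higher. Psat1, Mthfd2, Phgdh and Atf3 were lower in shDnajb9 than in lacZ1 and lower in shRictor than in lacZ2, by 2.19-fold to 7.84-fold in the first comparison and by 3.17-fold to 5.35-fold in the second. Atf4, Atf5, Ddit3, Trib3, Asns and Chac1 did not pass the test in either. All 10 members passed the filter on low counts. A gene was called at an adjusted p under 0.05, from edgeR's quasi-likelihood F test with Benjamini-Hochberg adjustment over 13767 tested genes. Among all tested genes, 12.6% were called lower in shDnajb9 and 10.9% in shRictor, against 4 of 10 members in each. In either direction, 24.2% and 18.2% of all tested genes were called. At an unadjusted p under 0.05 there were 5 and 4 of the 10 members, beside 5422 and 4359 of the 13767 tested genes. The median log2 fold change of the 10 members was -0.23 in shDnajb9 and -0.58 in shRictor, beside -0.05 and -0.02 over all tested genes. Of all tested genes 6.85% were called lower in both comparisons, beside 4 of 10 members, and 4.16% higher in both, beside 0 of 10. The members were chosen with earlier results of these data known, so the shares are a description.

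**Figure D1:**
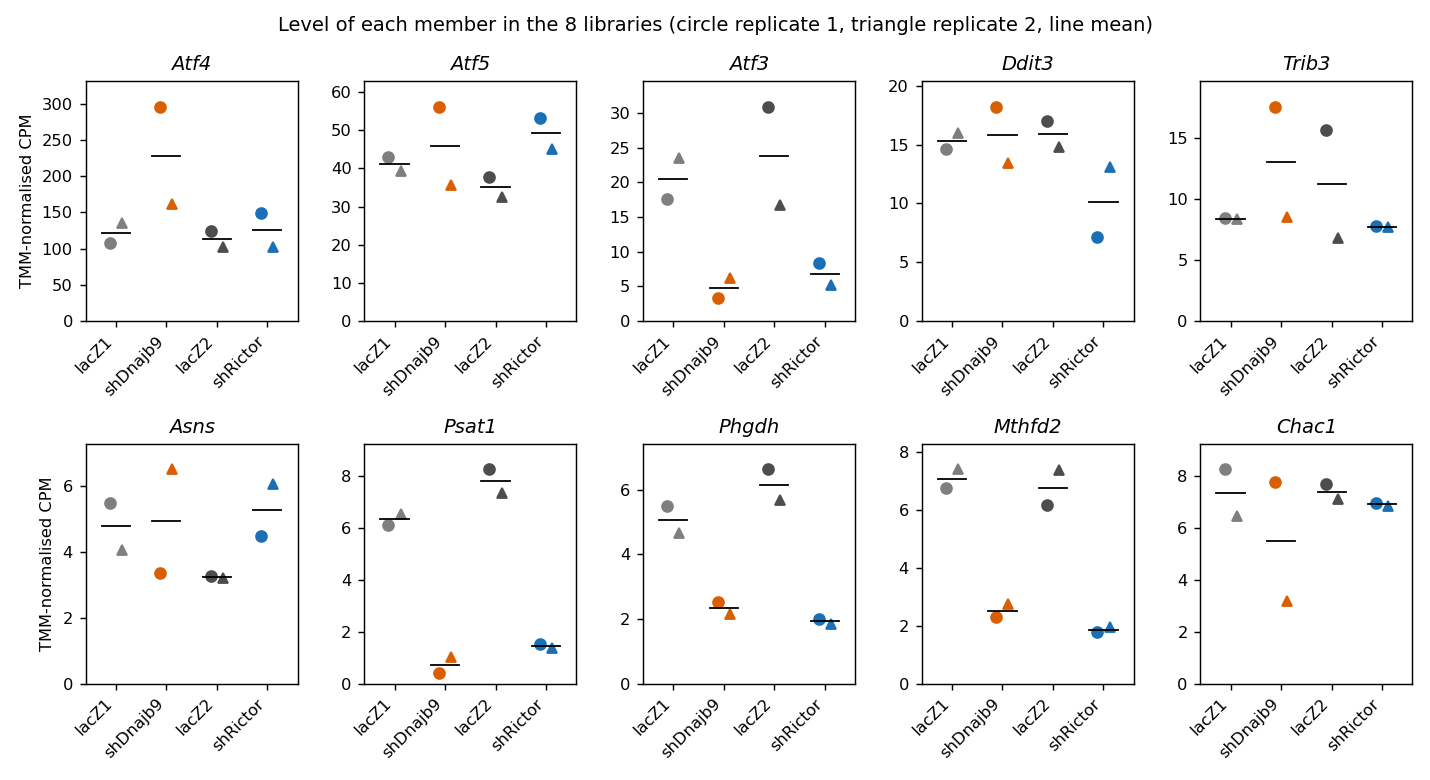
Level of each of the 10 genes in the 8 libraries, in TMM-normalised CPM on a linear axis from 0, with a circle for replicate 1, a triangle for replicate 2 and a line at the group mean. In the panels of Atf3, Psat1, Phgdh and Mthfd2 the 4 shDnajb9 and shRictor libraries lie below the 4 lacZ libraries, while the groups overlap or differ in direction in the panels of the other 6 genes.

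Across genes, levels were compared per kilobase of exon. In lacZ1, Atf4 was the most abundant of the 10 at 70.4 ± 11.5 CPM per kilobase (SD, n = 2), followed by Atf5 at 20.7 ± 1.29, Ddit3 at 17.2 ± 1.07 and Atf3 at 9.55 ± 1.92. Chac1 stood at 4.48 ± 0.780, Trib3 at 4.14 ± 0.0259, Mthfd2 at 3.10 ± 0.204, Phgdh at 2.61 ± 0.307, Psat1 at 2.12 ± 0.105 and Asns at 1.95 ± 0.417. The transcription factors thus lay above the enzymes and the feedback protein in this control group. In that order, the neighbours Chac1 and Trib3, Mthfd2 and Phgdh, and Psat1 and Asns were closer than the sum of their SDs, and the other neighbours were farther apart. The last place changed hands: Asns was lowest in lacZ2 as well (1.32 ± 0.0117, with Psat1 at 2.61 ± 0.212), while Psat1 was lowest in shDnajb9 (0.242 ± 0.144, with Asns at 2.02 ± 0.912) and in shRictor (0.485 ± 0.0381, with Asns at 2.15 ± 0.460). Over the 8 libraries the highest CPM was 19.7 times the lowest for Psat1, 9.22 times for Atf3, 4.19 times for Mthfd2 and 3.57 times for Phgdh. The other 6 members varied between 1.72 times (Atf5) and 2.91 times (Atf4).

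Atf4, the transcription factor at the centre of the response (15:80255184-80257541, plus strand), was not called in either knockdown. The lacZ1 libraries had 107 and 136 CPM and the shDnajb9 libraries 296 and 161 CPM. Both knockdown libraries lay above both controls, as for 32.4% of all tested genes, and replicate 1 of shDnajb9 was the highest of all 8. The difference was a log2 fold change of 0.91 (SE 0.33, 95% interval 0.21 to 1.61), 1.88-fold, with an adjusted p = 0.0578 from edgeR. With scaling by total count only it was 0.45 (edgeR adjusted p = 0.263). The call turned on settings. It passed without shDnajb9 replicate 2 (1.28, adjusted p = 0.0100), without the low-count filter (0.89, adjusted p = 0.0219) and in DESeq2 (0.93, adjusted p = 0.0258), and fell back to 0.41 without shDnajb9 replicate 1. In the other comparison the lacZ2 libraries had 125 and 102 CPM and the shRictor libraries 149 and 102 CPM. These groups overlapped, with a log2 fold change of 0.15 (SE 0.32, 95% interval -0.55 to 0.85, adjusted p = 0.794), which turned to -0.14 without shRictor replicate 1 and to -0.26 with scaling by total count only.

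Ddit3 encodes CHOP, a C/EBP family member that ATF4 induces in prolonged stress (10:127290774-127296288, plus strand). Levels in CPM were 14.6 and 16.0 for lacZ1, 18.2 and 13.5 for shDnajb9, 17.0 and 14.8 for lacZ2 and 7.18 and 13.1 for shRictor. The shDnajb9 and lacZ1 libraries overlapped, with a log2 fold change of 0.04 (SE 0.30, 95% interval -0.60 to 0.68, adjusted p = 0.935). The 2 shRictor libraries were under the 2 lacZ2 libraries, replicate 1 by more, a separation downward seen in 31.6% of all tested genes. That difference was -0.64 (SE 0.30, 95% interval -1.27 to 0.0018, adjusted p = 0.159), and it was called when libraries were scaled by total count only (-1.05, adjusted p = 0.0298). In the annotation 4.73% of the exon bases of Ddit3 overlap genes on the opposite strand, and the strand setting of the counting was not given.

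Atf5, a relative of Atf4 that is also under translational control (7:44812256-44816658, minus strand), was the least variable member. Levels in CPM were 43.0 and 39.4 for lacZ1, 56.2 and 35.6 for shDnajb9, 37.7 and 32.6 for lacZ2 and 53.3 and 45.1 for shRictor. The first pair of groups overlapped and the second did not, with shRictor higher, a separation upward seen in 28.8% of all tested genes. Log2 fold changes were 0.15 (SE 0.26, adjusted p = 0.695) and 0.49 (SE 0.25, adjusted p = 0.211). In the annotation 4.11% of its exon bases overlap genes on the opposite strand.

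Atf3, a stress-induced transcription factor downstream of ATF4 that is also induced by growth signals (1:191170296-191218039, minus strand), fell in both knockdowns. The lacZ1 libraries had 17.6 and 23.5 CPM, against 3.35 and 6.17 CPM for shDnajb9. The lacZ2 libraries had 30.9 and 16.7 CPM, against 8.36 and 5.18 CPM for shRictor. The 4 knockdown libraries therefore all lay below the 4 lacZ libraries, with the lowest lacZ library at 16.7 and the highest knockdown library at 8.36 CPM. Across all tested genes, 17.9% had their 4 knockdown libraries below their 4 lacZ libraries and 16.2% above, and among the members 4 of 10 and 0 of 10. Within the shDnajb9 comparison alone, 35.1% of all tested genes were lower without overlap. In shDnajb9 the level was 4.13-fold lower (log2 fold change -2.05, SE 0.39, 95% interval -2.89 to -1.20, adjusted p = 0.00327). In shRictor it was 3.52-fold lower (-1.81, SE 0.37, 95% interval -2.61 to -1.02, adjusted p = 0.00494). The second call rested on the libraries: it was missed without lacZ2 replicate 1 (-1.31, adjusted p = 0.0649) and without shRictor replicate 2 (-1.50, adjusted p = 0.0524).

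The feedback protein, the glutathione-degrading enzyme and the asparagine enzyme were not called. Trib3 encodes a pseudokinase that binds ATF4 and CHOP and restrains AKT (2:152337422-152344032, minus strand). Levels in CPM were 8.42 and 8.35 for lacZ1, 17.6 and 8.56 for shDnajb9, 15.7 and 6.86 for lacZ2 and 7.77 and 7.73 for shRictor. The high values were the 2 libraries that stood apart, and the other 6 lay between 6.86 and 8.56 CPM. Log2 fold changes were 0.60 (SE 0.40, adjusted p = 0.281) in shDnajb9 and -0.52 (SE 0.40, adjusted p = 0.406) in shRictor. Without both of these libraries the second value became 0.18.

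Chac1 encodes an enzyme that breaks down glutathione and is induced by ATF4 (2:119351229-119354381, plus strand). Levels in CPM were 8.24 and 6.44 for lacZ1, 7.76 and 3.20 for shDnajb9, 7.68 and 7.11 for lacZ2 and 6.95 and 6.85 for shRictor. One library, shDnajb9 replicate 2, was low, and without it the log2 fold change of -0.51 (SE 0.37, adjusted p = 0.325) became 0.07. In shRictor the log2 fold change was -0.10 (SE 0.35, 95% interval -0.85 to 0.65, adjusted p = 0.880).

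Asns encodes asparagine synthetase, whose promoter element is a standard reporter of amino acid shortage (6:7675169-7693254, minus strand). Levels in CPM were 5.50 and 4.05 for lacZ1, 3.35 and 6.51 for shDnajb9, 3.26 and 3.22 for lacZ2 and 4.47 and 6.07 for shRictor. Groups overlapped in the first comparison (log2 fold change 0.09, SE 0.37, adjusted p = 0.877). In the second, both shRictor libraries lay above both lacZ2 libraries (0.71, SE 0.37, 95% interval -0.08 to 1.50, adjusted p = 0.208), a separation seen upward in 28.8% of all tested genes. Counts of Asns were between 16 and 62 per library, so these intervals span more than 2-fold.

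The enzymes of serine synthesis and mitochondrial one-carbon transfer were the members that fell with Atf3. PHGDH catalyses the first step of serine synthesis, PSAT1 the transamination that follows and PSPH the last step, while MTHFD2 works in the mitochondrion. Psat1 (19:15904678-15947337, minus strand) changed most among the 10. The lacZ1 libraries held 69 and 55 counts and the shDnajb9 libraries 2 and 9, or 6.12 and 6.56 CPM against 0.419 and 1.03 CPM. The lacZ2 libraries held 71 and 87 counts and the shRictor libraries 13 and 14, or 8.26 and 7.36 CPM against 1.53 and 1.37 CPM. No knockdown library came near a lacZ library. The highest knockdown value, 1.53 CPM, lay below the lowest lacZ value, 6.12 CPM.

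From edgeR, Psat1 was 7.84-fold lower in shDnajb9 (log2 fold change -2.97, SE 0.43, 95% interval -3.89 to -2.05, adjusted p = 0.000526). It was 5.35-fold lower in shRictor (-2.42, SE 0.36, 95% interval -3.20 to -1.64, adjusted p = 0.000711). Because the knockdown counts were few, the ratio of summed counts was also taken with its counting interval. The 11 counts in shDnajb9 against 124 in lacZ1 gave a depth-adjusted ratio of 0.129 (95% interval 0.0627 to 0.239). The 27 counts in shRictor against 158 in lacZ2 gave 0.186 (0.119 to 0.282). These intervals cover counting error only. Psat1 was called lower in both comparisons under each of the 19 alternatives, and its change in shDnajb9 became -3.87 without shDnajb9 replicate 2.

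Phgdh (3:98313170-98339990, minus strand) had 5.50 and 4.65 CPM in the lacZ1 libraries, against 2.52 and 2.17 for shDnajb9. In the lacZ2 libraries it had 6.63 and 5.67 CPM, against 2.00 and 1.86 for shRictor. The 4 knockdown libraries lay below the 4 lacZ libraries, with little spread inside a group. In shDnajb9 it was 2.19-fold lower (log2 fold change -1.13, SE 0.35, 95% interval -1.88 to -0.38, adjusted p = 0.0320). In shRictor it was 3.17-fold lower (-1.66, SE 0.33, 95% interval -2.38 to -0.94, adjusted p = 0.00457). The second call held under each alternative, and the first did not. In shDnajb9 the adjusted p was 0.0755 in DESeq2 (-1.11), 0.201 and 0.0682 without lacZ1 replicate 1 or 2 (-1.03 and -1.24), and 0.0951 and 0.119 without shDnajb9 replicate 1 or 2 (-1.22 and -1.02). Phgdh values are also uncertain in level, since 47.8% of its 50-base stretches occur in other annotated genes, among them Gm7901 and Gm9347, and reads can be lost or split between them.

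Mthfd2 (6:83305691-83325908, minus strand) had 6.74 and 7.39 CPM in the lacZ1 libraries, against 2.31 and 2.74 for shDnajb9. In the lacZ2 libraries it had 6.16 and 7.36 CPM, against 1.77 and 1.96 for shRictor. As with Psat1 and Phgdh, the 4 knockdown libraries were the 4 lowest. The level was 2.75-fold lower in shDnajb9 (log2 fold change -1.46, SE 0.33, 95% interval -2.17 to -0.75, adjusted p = 0.00785). It was 3.62-fold lower in shRictor (-1.85, SE 0.33, 95% interval -2.56 to -1.15, adjusted p = 0.00198). Both calls held under each alternative. Psph, which is not one of the 10 and completes the pathway, had 12.3 and 15.1 CPM for lacZ1, 11.5 and 7.31 for shDnajb9, 14.3 and 9.06 for lacZ2 and 7.42 and 4.60 for shRictor. Its log2 fold changes were -0.57 (SE 0.33, adjusted p = 0.222) and -0.96 (SE 0.34, adjusted p = 0.0668). In the mean of both comparisons Psph passed the test at -0.76 (SE 0.24, adjusted p = 0.0236), but missed it without lacZ1 replicate 2 (adjusted p = 0.0652), shDnajb9 replicate 2 (0.0728), lacZ2 replicate 1 (0.0953) or shRictor replicate 2 (0.0915). In the annotation 10.44% of its exon bases overlap Cct6a on the opposite strand, with the same limit as for Ddit3.

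**Figure D2:**
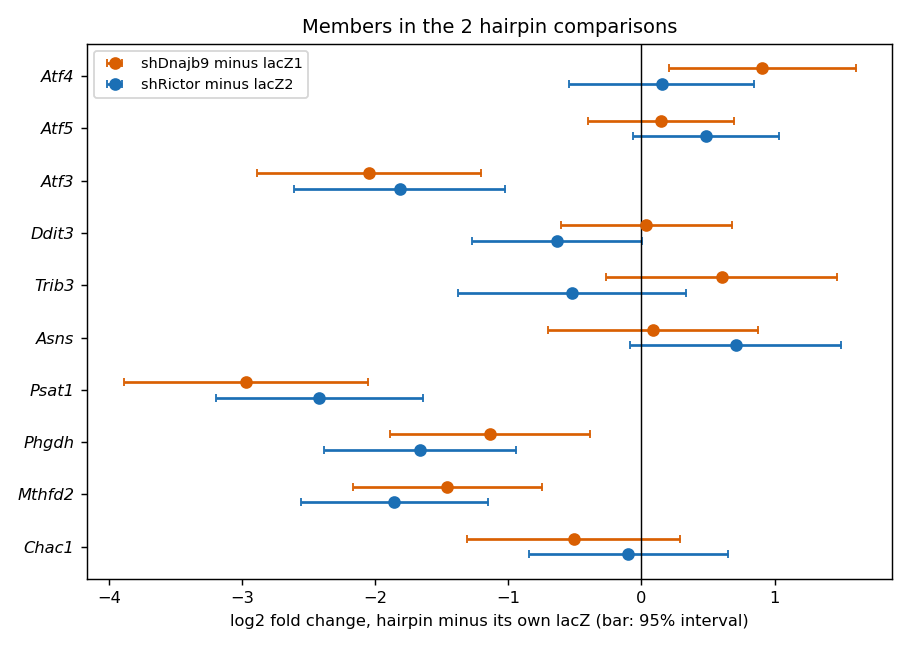
Log2 fold change of each of the 10 genes in shDnajb9 minus lacZ1 (orange) and shRictor minus lacZ2 (blue), with 95% intervals from the edgeR fit and a line at 0. The intervals of Atf3, Psat1, Phgdh and Mthfd2 lie below 0 in both comparisons, and that of Atf4 lies above 0 in shDnajb9 although its adjusted p is 0.0578.

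Whether the 2 knockdowns differed was tested directly, as the shRictor change minus the shDnajb9 change. Of the 10 members 0 were called in edgeR, beside 0.00726% of all tested genes. At an unadjusted p under 0.05 there were 0 of 10, beside 1495 of the 13767 tested genes. The count of members called stayed at 0 in DESeq2, limma-voom and the other alternatives run for this difference. The estimates ran from -1.13 for Trib3 (SE 0.56, 95% interval -2.35 to 0.09) to 0.62 for Asns (SE 0.52, 95% interval -0.50 to 1.74). For Psat1 the difference was 0.55 (SE 0.58, adjusted p = 0.742), for Phgdh -0.53 (SE 0.49, adjusted p = 0.701), for Mthfd2 -0.40 (SE 0.47, adjusted p = 0.770) and for Atf3 0.23 (SE 0.53, adjusted p = 0.900). The SEs were between 0.36 and 0.58, so the intervals were wide, for Psat1 from -0.71 to 1.81. The 2 control groups, which also differ in age, were compared in the same way. Between lacZ2 and lacZ1, 0 members were called, beside 0% of all tested genes. Their log2 fold changes lay between -0.57 and 0.41, with an edgeR adjusted p of 0.99991 for each. At an unadjusted p under 0.05 there were 0 members, beside 169 of the 13767 tested genes. Psat1 and Phgdh were higher in lacZ2 without overlap, as were 11.7% of all tested genes, and Atf5 and Asns lower, as were 9.97%.

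In the mean of both comparisons the 4 fallers had log2 fold changes of -2.70 for Psat1 (SE 0.28, adjusted p = 1.622e-05), -1.93 for Atf3 (SE 0.27, adjusted p = 0.000168), -1.66 for Mthfd2 (SE 0.23, adjusted p = 0.000160) and -1.40 for Phgdh (SE 0.24, adjusted p = 0.000735). They were 4 of 10 members, against 19.5% of all tested genes called lower in that mean and 36.2% called in either direction. Atf4 had a mean change of 0.53 (SE 0.23, adjusted p = 0.0869) and Ddit3 of -0.30 (SE 0.21, adjusted p = 0.283).

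Ratios within a library do not depend on how libraries are scaled. They do carry any change in Atf4 itself, whose log2 fold changes were 0.91 in shDnajb9 and 0.15 in shRictor, neither called. In shDnajb9 the log2 fold change of Ddit3 was 0.04, so its lower ratio there came with the higher Atf4. For every 100 counts of Atf4, the summed counts of Psat1, Phgdh and Mthfd2 were 17.1 and 13.7 for lacZ1, against 1.77 and 3.69 for shDnajb9. They were 16.9 and 20.1 for lacZ2, against 3.55 and 5.07 for shRictor. The enzymes therefore stood lower against Atf4 in each of the 4 knockdown libraries than in any lacZ library. Atf3 per 100 counts of Atf4 was 16.4 and 17.3 for lacZ1 against 1.13 and 3.83 for shDnajb9, and 24.8 and 16.4 for lacZ2 against 5.60 and 5.07 for shRictor. Ddit3 was less separated. It stood at 13.6 and 11.8 per 100 counts of Atf4 for lacZ1, 6.17 and 8.36 for shDnajb9, 13.6 and 14.6 for lacZ2, and 4.82 and 12.8 for shRictor, where replicate 2 lay within the range of the lacZ libraries.

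**Figure D3:**
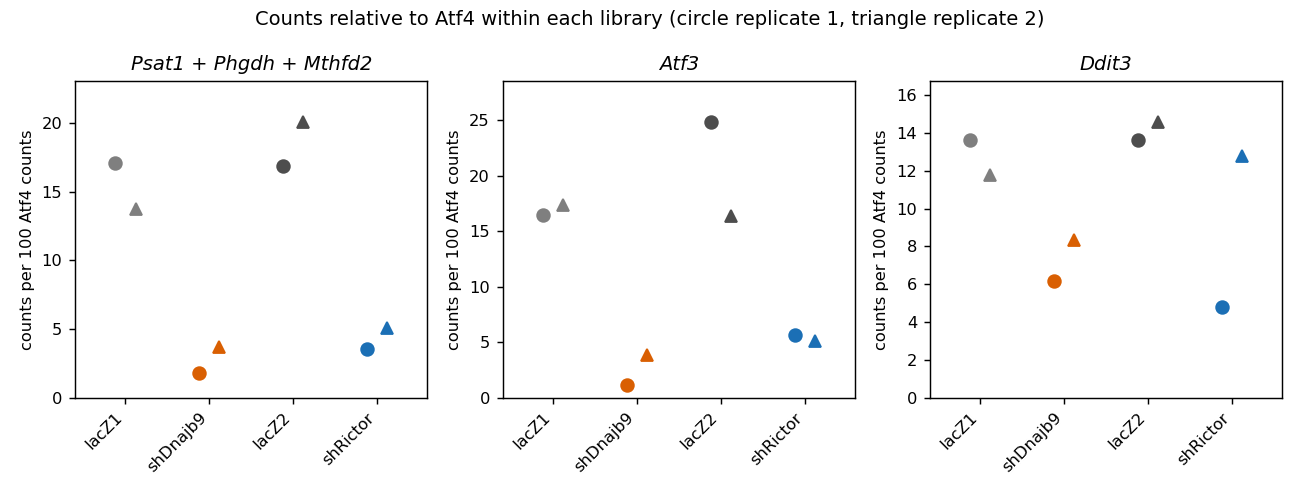
Counts of Psat1, Phgdh and Mthfd2 together, of Atf3 and of Ddit3 per 100 counts of Atf4 within each library, on linear axes from 0, with a circle for replicate 1 and a triangle for replicate 2. In the first panel the knockdown libraries reach at most 5.07 and the lacZ libraries start at 13.7, whereas in the Ddit3 panel shRictor replicate 2 at 12.8 lies among the lacZ libraries.

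Asns and Psat1, both amino acid enzymes that ATF4 activates, were compared in the same way. Asns had 89.9 and 61.8 counts for every 100 counts of Psat1 in lacZ1 and 39.4 and 43.7 in lacZ2. In shDnajb9 it had 800 and 633 and in shRictor 292 and 443. Uncorrected for length, Asns had fewer counts than Psat1 in the 4 lacZ libraries and more in the 4 knockdown libraries. The shDnajb9 ratios rest on 2 and 9 counts of Psat1.

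Around the 10 members, 84 genes in 5 lists are reported, of which 83 were tested. These lists were also set with earlier results of these data known, and no set was tested as a whole. In shDnajb9, 10 of the 83 were called higher and 16 lower, beside 11.6% and 12.6% of all tested genes. In shRictor, 15 were called higher and 10 lower, beside 7.31% and 10.9%. Leaving out 1 library took these counts as low as 1 higher and 7 lower (both without lacZ1 replicate 1) in shDnajb9. In shRictor it took them as low as 4 higher (without lacZ2 replicate 1 or shRictor replicate 2) and 7 lower (without lacZ2 replicate 1 or shRictor replicate 1).

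Upstream of ATF4 stand the eIF2 kinases and the phosphatase, with 11 genes followed. In shDnajb9 1 was called higher and 0 lower, where 24.2% of all tested genes were called in either direction. In shRictor 1 was called higher and 1 lower, a share near the 18.2% of all tested genes. The medians were 0.05 and -0.16, beside -0.05 and -0.02 over all tested genes. Eif2ak4, the kinase GCN2 that senses uncharged transfer RNA, ranged from 15.1 to 35.8 CPM over the 8 libraries and was not called. Eif2ak3, the endoplasmic reticulum kinase PERK, ranged from 21.3 to 37.0 CPM and was not called either. The genes that passed were Dnajc3, an inhibitor of eIF2 kinases, in shDnajb9 (log2 fold change 0.94, SE 0.32, adjusted p = 0.0472), and in shRictor the GCN2 inhibitor Impact (-1.03, SE 0.23, adjusted p = 0.00762) and the phosphatase subunit Ppp1r15b (0.85, SE 0.25, adjusted p = 0.0304). Each was lost when single libraries were left out. A library outside a comparison enters it through the shared spread, the scaling and the genes tested. Dnajc3 reached 0.322 without lacZ1 replicate 1, and was also lost without lacZ1 replicate 2 (0.111), shDnajb9 replicate 1 (0.189) and either shRictor library (0.0629 and 0.0639). Ppp1r15b was lost without either lacZ1 library (0.0560 and 0.0580), either lacZ2 library (0.0682 and 0.126) and either shRictor library (0.122 and 0.124), and Impact without shRictor replicate 2 (0.0816).

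Among 12 bZIP partners of ATF4, CHOP and ATF3, 1 was called higher and 2 lower in shDnajb9, and 1 higher and 1 lower in shRictor. These shares are near the 24.2% and 18.2% of all tested genes called in either direction. The medians were 0.21 and -0.27. Nfe2l2, which encodes the antioxidant factor NRF2, had 128 and 132 CPM for lacZ1, against 37.1 and 57.8 for shDnajb9. Its groups were well apart, and it fell by 1.45 on the log2 scale (SE 0.26, adjusted p = 0.00245). Jun, an AP-1 subunit, was lower in both (-1.18, SE 0.31, adjusted p = 0.0169, and -1.10, SE 0.31, adjusted p = 0.0253). Cebpa, a hepatocyte transcription factor, was higher in both (1.35, SE 0.36, adjusted p = 0.0183, and 1.16, SE 0.36, adjusted p = 0.0393). The call of Nfe2l2 held under each alternative, with an adjusted p of at most 0.0222, while those of Jun and Cebpa were lost when single libraries were left out. Jun was not called without lacZ1 replicate 1 (adjusted p = 0.174) or shDnajb9 replicate 1 (0.0902) in the first comparison, nor without lacZ2 replicate 1 (0.292), shRictor replicate 1 (0.139) or shRictor replicate 2 (0.0867) in the second. Cebpa was not called without lacZ1 replicate 1 (0.166), lacZ1 replicate 2 (0.0740) or shDnajb9 replicate 1 (0.175) in the first, nor without either lacZ1 library (0.0596 and 0.0602), either lacZ2 library (0.112 and 0.103) or either shRictor library (0.224 and 0.0730) in the second. Where these calls were lost, the log2 fold change of Cebpa was between 0.82 and 1.42 in the first and between 0.94 and 1.37 in the second. For Jun it was -0.85 and -1.17 in the first and between -1.19 and -0.58 in the second.

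Other targets of ATF4 and of amino acid shortage were mostly lower where they changed. Of 24 tested, 10 were called lower and 2 higher in shDnajb9 (median log2 fold change -0.68), and 6 lower and 3 higher in shRictor (median -0.44). Of all tested genes, 12.6% were called lower and 11.6% higher in shDnajb9, and 10.9% and 7.31% in shRictor. Lower in both were 6 of the 24, beside 6.85% of all tested genes: Slc7a11, Slc1a4, Tnfrsf10b, Fgf21, Gdf15 and Pck2. Slc7a11, the cystine importer, had 47.1 and 60.8 CPM for lacZ1 against 1.05 and 1.60 for shDnajb9, and 119 and 31.8 CPM for lacZ2 against 2.12 and 0.881 for shRictor. It lay far lower in each knockdown library than in any lacZ library, with log2 fold changes of -5.27 (SE 0.64, adjusted p = 0.000218) and -5.67 (SE 0.62, adjusted p = 0.000150). The second value became -4.43 without lacZ2 replicate 1, -6.32 without lacZ2 replicate 2 and -6.39 without shRictor replicate 1.

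Slc1a4, a transporter of serine and other neutral amino acids, had 36.4 and 55.2 CPM for lacZ1 against 4.61 and 2.74 for shDnajb9, and 71.5 and 37.0 CPM for lacZ2 against 2.94 and 3.82 for shRictor. On the log2 scale it fell by 3.69 in shDnajb9 (SE 0.40, adjusted p = 0.000130) and by 3.99 in shRictor (SE 0.39, adjusted p = 0.000106). Tnfrsf10b, a death receptor that CHOP induces, fell by 3.01 in shDnajb9 (SE 0.34, adjusted p = 0.000131) and by 2.62 in shRictor (SE 0.31, adjusted p = 0.000193). The calls of Slc7a11, Slc1a4 and Tnfrsf10b held under each alternative. Fgf21, a liver hormone of fasting and of amino acid shortage, had 4 counts in shDnajb9 against 58 in lacZ1, a depth-adjusted ratio of 0.100 (95% counting interval 0.0264 to 0.271, edgeR adjusted p = 0.00389). In shRictor it had 16 counts against 118 in lacZ2, a ratio of 0.148 (0.0819 to 0.250, adjusted p = 0.00163), and its log2 fold change of -2.75 became -3.55 without shRictor replicate 1. Both calls of Fgf21 held under each alternative.

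Gdf15, a stress hormone, had 31.3 and 34.6 CPM for lacZ1 against 17.8 and 6.96 for shDnajb9, and 56.1 and 26.1 CPM for lacZ2 against 6.00 and 10.5 for shRictor. Its groups did not overlap in either comparison (log2 fold change -1.46, SE 0.44, adjusted p = 0.0311, and -2.30, SE 0.44, adjusted p = 0.00389). In shDnajb9 Gdf15 missed the test without lacZ1 replicate 1 (0.125), lacZ1 replicate 2 (0.106) or shDnajb9 replicate 2 (-0.89, adjusted p = 0.174), and its call in shRictor held under each alternative. Pck2, the mitochondrial phosphoenolpyruvate carboxykinase, had log2 fold changes of -1.20 and -1.32 (SE 0.28 and 0.27, adjusted p = 0.00982 and 0.00568). It was not called without lacZ1 replicate 1 (0.0632) or shDnajb9 replicate 2 (0.0503) in the first comparison, nor without lacZ2 replicate 1 (0.0647) or shRictor replicate 1 (0.0509) in the second.

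Against that direction, Cth, which makes cysteine from cystathionine, was higher in both (log2 fold change 1.30, SE 0.28, adjusted p = 0.00610, and 1.40, SE 0.28, adjusted p = 0.00466). Got1, the cytosolic aspartate aminotransferase, was higher too (1.10, SE 0.27, adjusted p = 0.0132, and 1.61, SE 0.28, adjusted p = 0.00185). In its lowest library Got1 had 52.3 CPM and Cth 97.6 CPM, so neither call rests on few counts. In shDnajb9 neither was called without lacZ1 replicate 1 (adjusted p = 0.114 for Cth and 0.182 for Got1). Herpud1, an endoplasmic reticulum stress gene, was higher in shRictor (1.24, SE 0.33, adjusted p = 0.0194), but not called without lacZ2 replicate 1 (0.134) or shRictor replicate 2 (0.150). For 12 aminoacyl-tRNA synthetases, which ATF4 also induces, the medians were -0.12 and 0.04. Where 24.2% and 18.2% of all tested genes were called, 1 of the 12 was called, lower, in shDnajb9 and 0 in shRictor. The one was Cars (-0.79, SE 0.23, adjusted p = 0.0277), which was not called when any 1 of the 4 libraries compared was left out (adjusted p from 0.0697 to 0.164).

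Within serine, glycine and folate metabolism the direction differed by enzyme. Of 24 further enzymes, 6 were called higher and 3 lower in shDnajb9 (median log2 fold change 0.58), and 10 higher and 2 lower in shRictor (median 0.44). Over all tested genes the medians were -0.05 and -0.02. Of all tested genes, 11.6% were called higher and 12.6% lower in shDnajb9, and 7.31% and 10.9% in shRictor. Lower in both comparisons were 2 of the 24, a share near the 6.85% of all tested genes. These 2 are mitochondrial folate enzymes, which work next to MTHFD2. Not every mitochondrial gene of the list fell. Shmt2, the mitochondrial serine hydroxymethyltransferase, and Slc25a32, the mitochondrial folate carrier, were called higher in shRictor (log2 fold change 0.98 and 0.89). Neither was called in shDnajb9. Both calls were lost when single libraries were left out and with total count only (0.57 and 0.50). Mthfd1l, which releases formate from the mitochondrion, had 25.3 and 21.9 CPM for lacZ1 against 4.82 and 6.39 for shDnajb9, and 20.4 and 25.6 CPM for lacZ2 against 5.06 and 8.12 for shRictor. Its groups did not overlap, and on the log2 scale it fell by 2.05 in shDnajb9 (SE 0.30, adjusted p = 0.000584) and by 1.79 in shRictor (SE 0.28, adjusted p = 0.00105), with both calls held under each alternative.

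Aldh1l2, a mitochondrial folate dehydrogenase, was scarce. It had 1 count in shDnajb9 against 38 in lacZ1, a depth-adjusted ratio of 0.0383 (95% counting interval 0.000944 to 0.226, edgeR adjusted p = 0.00671). In shRictor it had 6 counts against 40 in lacZ2, a ratio of 0.164 (0.0567 to 0.388, adjusted p = 0.0181). Leaving out lacZ1 replicate 1 ended the first call (adjusted p = 0.0859), and the second was missed without lacZ2 replicate 1 (0.0932), shRictor replicate 1 (0.121) or shRictor replicate 2 (0.0781).

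Higher in both were 4 of the 24 enzymes, beside 4.16% of all tested genes. They were Gnmt, Aldh1l1, Shmt1 and Sds, which in liver dispose of methyl groups, formyl groups and serine. Gnmt, the abundant glycine methyltransferase of hepatocytes, had 561 and 765 CPM for lacZ1 against 6081 and 3518 for shDnajb9, and 299 and 544 CPM for lacZ2 against 2893 and 2391 for shRictor. The lowest knockdown library was above the highest lacZ library, and on the log2 scale the gene rose by 2.86 in shDnajb9 (SE 0.47, adjusted p = 0.00135) and by 2.65 in shRictor (SE 0.47, adjusted p = 0.00209), with both calls held under each alternative. The calls of the other 3 were lost in both comparisons when single libraries were left out. Aldh1l1, the cytosolic counterpart of Aldh1l2, rose by 1.44 in shDnajb9 (SE 0.39, adjusted p = 0.0192) and by 1.86 in shRictor (SE 0.39, adjusted p = 0.00619). It was not called in shDnajb9 without lacZ1 replicate 1 (0.171), lacZ1 replicate 2 (0.0946) or shDnajb9 replicate 1 (0.0742), nor in shRictor without shRictor replicate 2 (1.57, adjusted p = 0.0573). Shmt1, the cytosolic serine hydroxymethyltransferase, rose by 1.06 in shDnajb9 (SE 0.29, adjusted p = 0.0189) and by 1.26 in shRictor (SE 0.29, adjusted p = 0.00942). Its call was lost in shDnajb9 without lacZ1 replicate 1 (0.193) or lacZ1 replicate 2 (0.0584) and with total count only (0.65, adjusted p = 0.0874), and in shRictor without lacZ2 replicate 1 (0.91, adjusted p = 0.0969).

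Sds, the serine dehydratase, had 183 and 270 CPM for lacZ1 against 628 and 430 for shDnajb9, and 149 and 106 CPM for lacZ2 against 239 and 372 for shRictor. Its groups did not overlap (log2 fold change 1.22, SE 0.35, adjusted p = 0.0250, and 1.26, SE 0.35, adjusted p = 0.0261). In shDnajb9 it was not called without lacZ1 replicate 1 (0.250) or shDnajb9 replicate 1 (0.150), nor in shRictor without lacZ2 replicate 1 (0.0538), lacZ2 replicate 2 (0.123) or shRictor replicate 2 (0.205). With total count only Sds missed the test in both (0.0826 and 0.0780). In the annotation 29.57% of the exon bases of Sds overlap genes on the opposite strand, with the same limit as for Ddit3. Of its 50-base stretches, 21.21% occur in other annotated genes. The opposite-strand overlap was 11.05% for Aldh1l1 and 14.07% for Aldh1l2. Amt, of the glycine cleavage system, rose in shDnajb9 (1.36, SE 0.28, adjusted p = 0.00522), but was not called with lacZ1 replicate 1 left out (adjusted p = 0.0685). Tyms, which makes thymidylate, was lower in shDnajb9 (-0.77, SE 0.22, adjusted p = 0.0250). It was not called without lacZ1 replicate 1 (0.0916), lacZ1 replicate 2 (0.130) or shDnajb9 replicate 1 (0.113).

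**Figure D4:**
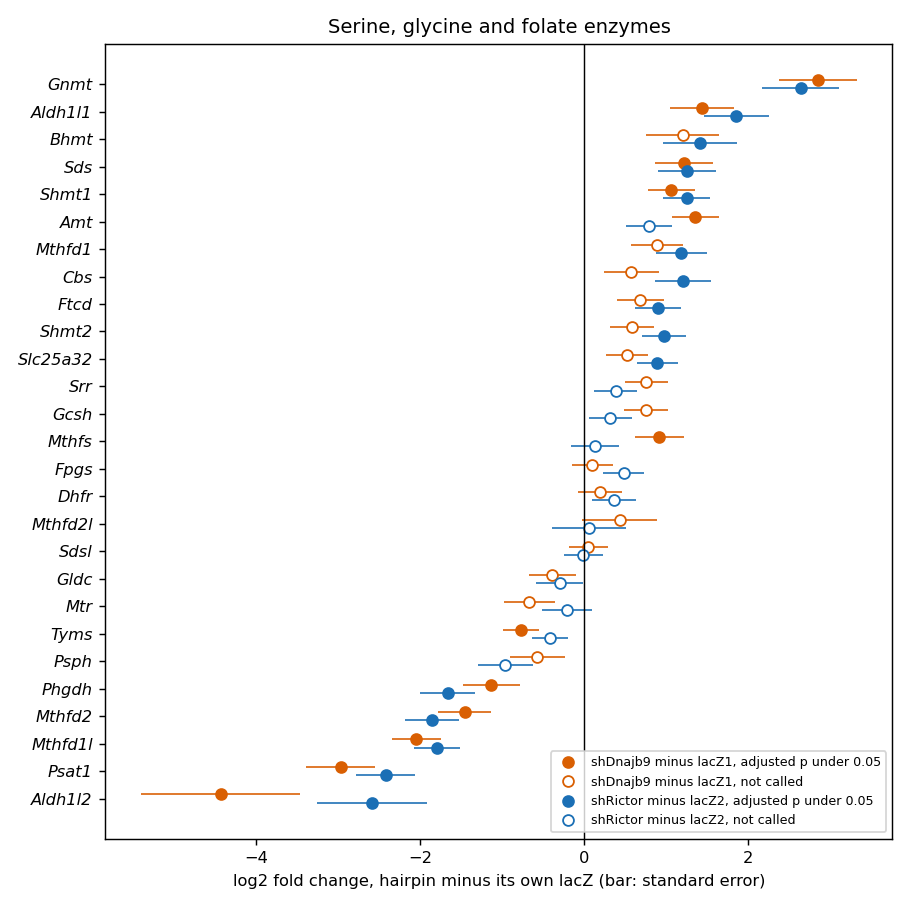
Log2 fold change of Psat1, Phgdh, Mthfd2 and 24 further enzymes of serine, glycine and folate metabolism in shDnajb9 minus lacZ1 (orange) and shRictor minus lacZ2 (blue), with bars of 1 standard error and filled symbols at an adjusted p under 0.05. Gnmt, Aldh1l1, Sds and Shmt1 are filled to the right of 0 in both comparisons, and Phgdh, Mthfd2, Mthfd1l, Psat1 and Aldh1l2 are filled to the left.

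Markers of dividing cells and of hepatocytes moved with these results. All 10 dividing cell markers were called lower in both comparisons, with median log2 fold changes of -2.90 and -2.64. Their summed level was 723 and 872 CPM for lacZ1 against 86.6 and 128 for shDnajb9, and 536 and 587 CPM for lacZ2 against 75.9 and 124 for shRictor, with no marker at 0. Of 10 hepatocyte markers 7 were called higher and 0 lower in both, with summed levels of 38650 and 51810 CPM for lacZ1, 74430 and 62010 for shDnajb9, 20310 and 40480 for lacZ2, and 61060 and 68660 for shRictor. These are bulk livers, in which fewer cells of a type and less RNA per cell cannot be told apart. Stellate cell and fibroblast markers were called lower for 5 of 8 in shDnajb9 and 2 of 8 in shRictor, with summed levels of 494 to 606 CPM in the lacZ libraries and 266 to 321 in the others. Neutrophil markers were lower for 4 of 5 and 1 of 5, with summed levels of 3.64 to 24.6 CPM in the lacZ libraries, 0.419 and 0.571 in shDnajb9, where 4 and 3 of the 6 genes found were at 0, and 1.53 and 4.30 in shRictor. Macrophage markers were called lower for 2 of 6 in each, cholangiocyte markers for 2 of 4 and 0 of 4, and T and NK cell markers for 1 of 6 and 2 of 6, while 0 of 4 B cell markers were called. Endothelial markers had 1 of 6 called higher in shDnajb9 and 0 in shRictor. Beside these marker counts, 12.6% of all tested genes were called lower and 11.6% higher in shDnajb9, and 10.9% and 7.31% in shRictor. A single call in a list of 6 is near these shares. The part of these cell markers in the fall of Psat1, Phgdh, Mthfd2 and Atf3 was not tested. Nor was the part of the share of reads with more than one mapping place, which was highest in the shDnajb9 libraries.

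The genes whose profiles over the 8 libraries were most like that of a member were sought among 11818 other genes, by the Euclidean distance between log2 CPM profiles centred on each gene's mean. Nearest to Atf4 were Hcfc1r1 (distance 0.21), Cox6b1 (0.22), a respiratory chain subunit, and Mrpl57 (0.23), a mitochondrial ribosomal protein. The nearest member to Atf4 was Trib3 at 1.08, a distance that would rank 2370 among the 11818 genes. Nearest to Ddit3 were Wrb (0.29), Apex1 (0.42) and Nmral1 (0.43). Nearest to Psat1 were the collagenase Mmp13 (0.62), Enc1 (0.67) and Epb4.1l1 (0.77). Among the members they were Atf3 (1.20), Mthfd2 (2.04) and Phgdh (2.29), with Atf4 the farthest from Psat1 at 4.87. The distances of Atf3, Mthfd2 and Phgdh would rank 52, 530 and 764 among the 11818 genes. The distances describe these 8 libraries, which share 4 groups.

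**Figure D5:**
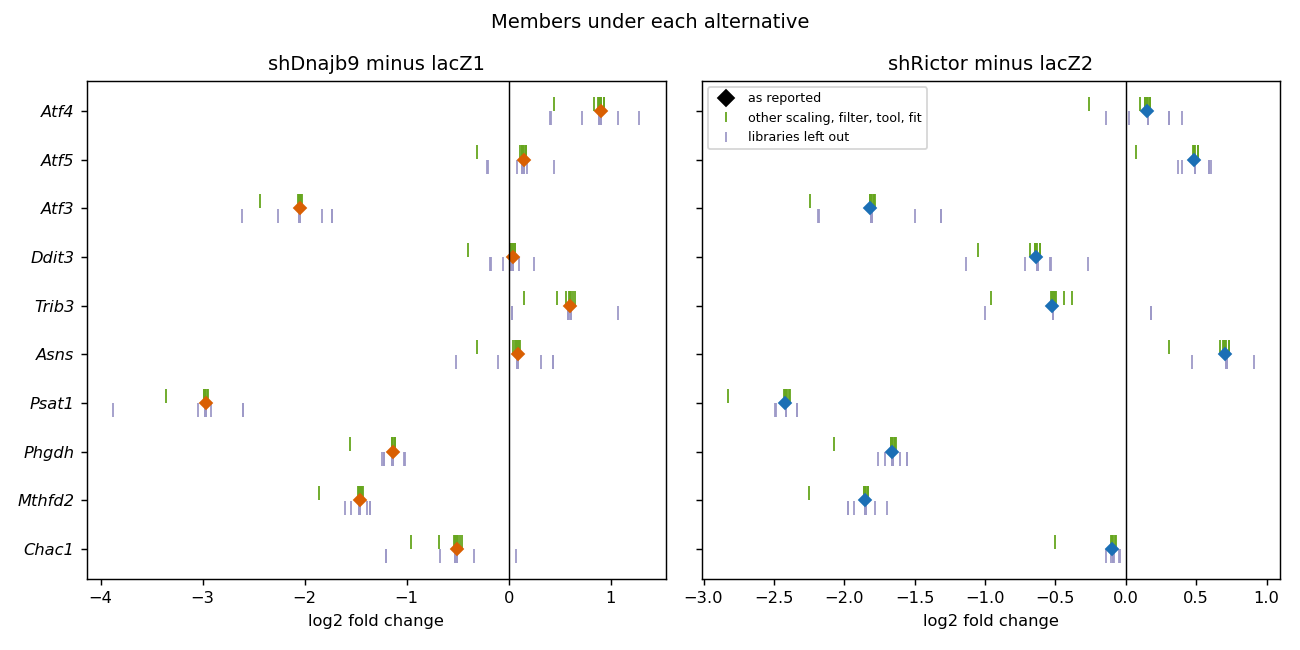
Log2 fold change of each of the 10 genes as reported (diamond), under other scalings, filters, tools and fits (green ticks) and with libraries left out (purple ticks), for shDnajb9 minus lacZ1 on the left and shRictor minus lacZ2 on the right. Ticks of Psat1, Phgdh, Mthfd2 and Atf3 stay below 0 in both panels, and ticks of Atf5, Ddit3, Asns and Chac1 on the left and of Atf4 and Trib3 on the right lie on both sides of 0.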

How the data were processed

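Total RNA depleted of ribosomal RNA was sequenced in 8 mouse liver libraries. The authors deposited 1 table per library, with raw whole-number counts for each gene symbol. Cutadapt, HTSeq and mm10 are named in the submitters' processing notes. The aligner, versions, annotation and strand setting were not given in the sources used here. Classes of unassigned reads (48.42% to 63.74% of reads) were left out. Of 24062 entries, 27 carry a date in place of a symbol and were kept in totals.

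The tests used edgeR 4.0.16 in R 4.3.3: filterByExpr with a minimum count of 10 (13767 genes tested, 10295 left out), TMM scaling, and 1 robust quasi-likelihood fit of 4 group means to all 8 libraries (4 residual degrees of freedom, common biological coefficient of variation 0.209). The fitting code was also run on simulated data, with far fewer changed genes than here and the same spread for every gene. That run is simpler than these data and does not vouch for the fit to them. Adjusted p-values are Benjamini-Hochberg over all tested genes. Alternatives used DESeq2 1.42.0 and limma 3.58.1. Lengths and positions are from GENCODE M21 (GRCm38). CPM per kilobase uses merged exons of coding transcripts.

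The members and lists were chosen with earlier results of these data known. Named beside them are, per list and knockdown, up to 4 called genes with the smallest p and those called against the list's majority, Psph, the targets and the 3 nearest profiles. Gdf15, Pck2, Sds, Shmt2, Slc25a32, Eif2ak3, Eif2ak4 and the shared calls were added after their values were seen. A gene of the lists is not reported here.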

Additional observations from a re-analysis of the deposited data

How the results depend on the processing

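Of the 10 members, 3 to 4 were called lower in shDnajb9 and 3 to 5 in shRictor over all alternatives. These were other scalings (RLE, total count only), no filter, a filter of 2 CPM in 2 libraries, DESeq2, limma-voom, separate fits of the 4 libraries of a comparison, a replicate block, an adjusted p under 0.1 and libraries left out. With 1 library left out, which gave 3 to 4 members lower in each, the lone library of its group is assumed to vary like the others. Members called higher in shDnajb9 went from 0 to 1, Atf4, without the low-count filter, in DESeq2, at an adjusted p under 0.1 and with crossed numbers, and ranged from 0 to 1 with 1 library left out. In the mean of both comparisons they became 1 at an adjusted p under 0.1 and ranged from 0 to 2 with 1 library left out (2 without shDnajb9 replicate 2). The cause was not tested.

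Some uncalled members changed sign. With total count only, which moved the median of all genes to -0.46 in shDnajb9 and -0.42 in shRictor, the shDnajb9 values became -0.31 for Atf5, -0.40 for Ddit3 and -0.31 for Asns, and Atf4 in shRictor -0.26. With 1 library left out, the shDnajb9 values ranged from -0.21 to 0.45 for Atf5, -0.18 to 0.25 for Ddit3, -0.52 to 0.44 for Asns and -1.20 to 0.0697 for Chac1. In shRictor they ranged from -0.14 to 0.40 for Atf4 and -1.001 to 0.18 for Trib3. The difference between the knockdowns ranged from -0.14 to 0.80 for Atf3 and -0.16 to 1.11 for Chac1. Without both libraries that stood apart, Atf5 (-0.21) and Ddit3 (-0.18) in shDnajb9, Trib3 in shRictor (0.18) and the Trib3 difference between the knockdowns (0.15) changed sign.

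Genes called among all tested ran from 318 to 2302 higher and 680 to 3354 lower in shDnajb9 (as reported 1597 and 1728), and from 314 to 1451 and 684 to 2810 in shRictor (1006 and 1502). The lower ends came without lacZ1 replicate 1 in shDnajb9, and without lacZ2 replicate 1 (higher) and shRictor replicate 1 (lower) in shRictor. With total count only the calls were 610 higher and 3354 lower in shDnajb9 and 436 and 2810 in shRictor, and those of the 83 tested list genes 5 and 28, and 6 and 27. For the difference between the knockdowns, 257 genes higher and 138 lower were called without the filter and 19 and 24 in DESeq2, against 1 and 0 as reported.

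In the groups compared, same-numbered libraries did not deviate together (r of deviations -0.30 between lacZ1 and shDnajb9, -0.03 between lacZ2 and shRictor). Over the other pairs of groups r was 0.32 (shDnajb9 and shRictor), 0.20 (lacZ1 and lacZ2), 0.0167 (shDnajb9 and lacZ2) and -0.33 (lacZ1 and shRictor), so the numbers were not taken as pairs. With a replicate block, 4 members were called lower and 0 higher in each comparison, and 1559 genes higher and 1730 lower in shDnajb9. With crossed numbers, added after seeing the data, 4 members were lower in each, and 2127 genes higher and 2414 lower in shDnajb9. Counts of 2 to 87 per library for Psat1, Phgdh, Mthfd2 and Asns limit what could be seen of smaller changes.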
